A study of Eptesicus fuscus and Canis lupus familiaris and Equus caballus with 4 samples.

Results

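The 9 hairpin candidates described here lie on the big brown bat (Eptesicus fuscus) contigs ALEH01144123.1, ALEH01144124.1 and ALEH01144127.1. They were chosen by contig name, as all rows of the bat list on the 5 contigs numbered ALEH01144123 to ALEH01144127, and were singled out with matches in the other species known. The bat list holds 762 candidates, and the lists of the 3 species hold 1453 in all. Each candidate is a genomic interval predicted to give a folded-back RNA, with small RNA reads mapped to an arm of it. The contigs numbered ALEH01144125 and ALEH01144126 had no candidate. Small RNA came from adult testis of the bat, the horse and the dog, untreated as far as the labels say, with 1 library per species analysed here. With 1 library each there is no replicate, and no difference was tested.

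A microRNA (miRNA) is cut from a hairpin transcript, first at the base of the stem and then at the loop, which leaves a short duplex. Either strand of the duplex can be loaded into an Argonaute protein, the strand from the first arm being called 5p and that from the second arm 3p. The seed, bases 2 to 8 of the loaded strand, leads its pairing with target mRNAs. In placental mammals a fast-changing group of X-linked miRNAs active in the testis, the miR-506 family, lies between the genes SLITRK2 and FMR1. The RefSeq gene table of the big brown bat, on assembly DD_ASM_mEF_20220401, lists 7 miRNA genes between FMR1 and SLITRK2. They are MIR507C, MIR8908, MIR507B, MIR507A, MIR506, MIR513 and MIR9305, which follow each other there with no other gene between them. That table is of another build and holds no miRNA sequences, so none of these names is given to a candidate here.

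The 9 candidates form 5 hairpins, called A to E here by contig number and position, and all lie on the minus strand. Hairpins A and B are on ALEH01144123.1, C is on ALEH01144124.1, and D and E are on ALEH01144127.1. The most-read candidate of each is printed below 5′ to 3′ in DNA letters, with the listed mature sequences of both arms in capitals. These hairpins are shown because their arms, loops and order carry the comparison.
Candidate_870 (hairpin A): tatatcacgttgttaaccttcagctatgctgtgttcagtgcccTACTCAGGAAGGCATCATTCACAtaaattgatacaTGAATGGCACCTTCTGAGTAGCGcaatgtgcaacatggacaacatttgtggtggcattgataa
Candidate_869 (hairpin B): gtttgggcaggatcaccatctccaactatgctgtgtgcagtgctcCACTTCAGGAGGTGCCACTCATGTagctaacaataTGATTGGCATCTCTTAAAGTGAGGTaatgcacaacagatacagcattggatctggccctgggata
Candidate_683 (hairpin C): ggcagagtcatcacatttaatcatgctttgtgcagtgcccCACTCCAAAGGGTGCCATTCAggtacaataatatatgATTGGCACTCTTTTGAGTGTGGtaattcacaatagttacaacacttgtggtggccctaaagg
Candidate_514 (hairpin D): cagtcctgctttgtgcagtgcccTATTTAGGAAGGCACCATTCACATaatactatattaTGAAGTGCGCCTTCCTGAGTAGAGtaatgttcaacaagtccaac
Candidate_513 (hairpin E): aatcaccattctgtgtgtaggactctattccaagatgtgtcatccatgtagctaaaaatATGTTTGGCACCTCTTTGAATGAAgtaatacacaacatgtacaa

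The submitters' processing notes name the dog build CanFam3.1 for the bat and horse libraries too, which cannot hold for the bat contigs, so the bat and horse builds are not settled here. The positions on the contigs are as follows. Candidate_870 lies at ALEH01144123.1, 4683 to 4823, and Candidate_869 on the same contig at 5090 to 5234. Candidate_683 lies at ALEH01144124.1, 2988 to 3126. Candidate_514 lies at ALEH01144127.1, 7731 to 7833, and Candidate_513 on that contig at 11496 to 11598. Without an annotation of the bat build, their place relative to exons, introns or UTRs is not stated.

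The listed mature sequences, with the seed in capitals, show how the 3p arms differ from each other and which 5p arms go with them.
Candidate_870 (A, 3p): tGAATGGCaccttctgagtagcg
Candidate_868 (A, 5p): tACTCAGGaaggcatcattcaca
Candidate_869 (B, 3p): tGATTGGCatctcttaaagtgaggt
Candidate_871 (B, 5p): cACTTCAGgaggtgccactcatgt
Candidate_683 (C, 3p): aTTGGCACtcttttgagtgtgg
Candidate_682 (C, 5p): cACTCCAAagggtgccattca
Candidate_514 (D, 3p): tGAAGTGCgccttcctgagtagag
Candidate_515 (D, 5p): tATTTAGGaaggcaccattcacat
Candidate_513 (E, 3p): aTGTTTGGcacctctttgaatgaa

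No seed was shared between these 9 sequences. The letters TGGCA, picked after the sequences were seen, occur on the mature strand of 4 of the 5 3p sequences but at different distances from the first base. TGGCA began at base 5 in Candidate_870 and Candidate_869, at base 3 in Candidate_683 and at base 6 in Candidate_513. Candidate_514 lacked it. Of all 647 distinct bat mature sequences, 3.71% hold TGGCA. The 3p sequences of hairpins B, C and E therefore begin at different distances from a stretch they share, and the seed covers different bases of it.

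Reads fell mostly on the 3p arm. Candidate_513 of hairpin E led with 872 reads, followed by Candidate_870 of A with 506 reads, Candidate_514 of D with 331, Candidate_869 of B with 262 and Candidate_683 of C with 151. The 5p candidates had fewer reads, with 23 at Candidate_871, 22 at Candidate_868 and 1 each at Candidate_515 and Candidate_682. Every listed 3p candidate had more reads than every 5p candidate of the set. The 5 3p candidates summed to 2122 of 2169 reads, or 97.8% (exact Clopper-Pearson 95% interval 97.1 to 98.4). These intervals cover counting error only, since reads without molecular identifiers are not independent molecules. In bulk tissue, fewer cells of a type and less RNA per cell cannot be told apart. Whole testis was sequenced, and the reads are not assigned to germ cells or somatic cells.

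**Figure D1:**
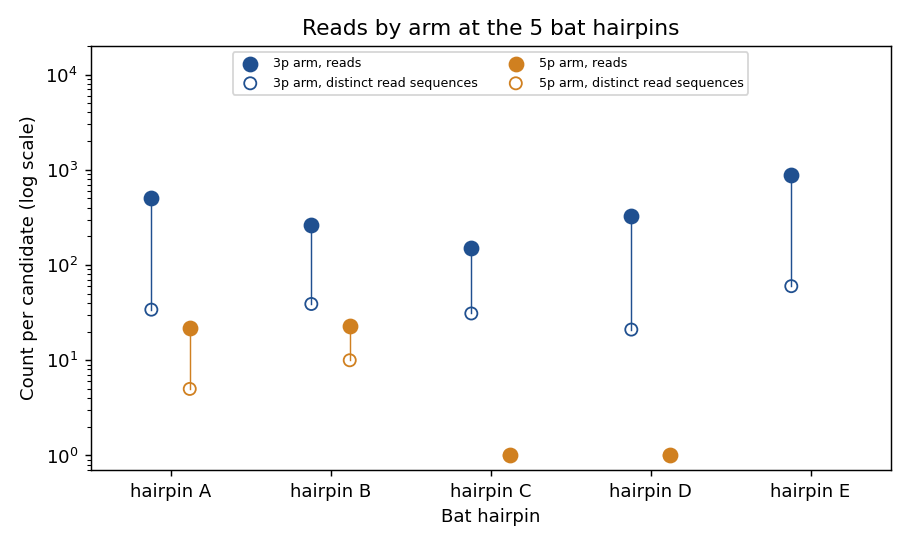
Reads (filled) and distinct read sequences (open) at each bat candidate, on a log axis, for hairpins A to E and for the 3p arm (blue) left of the 5p arm (orange). The 3p candidates had 151 to 872 reads and the 5p candidates 1 to 23, and hairpin E had no listed 5p candidate.

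Both arms were listed at 4 of the 5 hairpins, A to D. Of all 669 bat loci, 13% had candidates on both arms, a locus being hairpins that overlap on 1 strand. At hairpin A the 5p arm took 4.17% of the reads of both arms (2.63 to 6.24). At B it took 8.07% (5.18 to 11.9), at C 0.658% (0.0167 to 3.61) and at D 0.301% (0.00763 to 1.67). The intervals of A and B lie above that of D, where 1 read was on the 5p arm. They describe 1 library and treat reads as independent, and a difference between hairpins was not tested. In the rest of the bat list, 39 of 83 loci with both arms had more reads on the 3p arm, while in the set all 4 did. The 3p arm was also the arm of 54.2% of all bat candidates, and of 5 of the 9 here.

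The 3p candidates were ranked from 24 to 97 by reads in the bat list, and the 5p candidates ranked lower. Candidate_513 ranked 24, Candidate_870 ranked 34, Candidate_514 ranked 54, Candidate_869 ranked 65 and Candidate_683 ranked 97 of 762. Candidate_871 ranked 190 and Candidate_868 ranked 194, and Candidate_515 and Candidate_682 shared rank 533 with 1 read each. The median was 151 reads over the 9 candidates, or 296.5 over the 6 that all 5 models accepted, and 3 over the other 753. At least 10 reads were found for 7 of the 9, and for 32.9% of the other bat candidates. The set held 2.43% of the 89091 listed bat reads (2.33 to 2.54). That total counts a mature sequence again at each candidate that lists it. With identical mature sequences once, the total was 78353 reads and the share 2.77%, above that interval. None of the 9 mature sequences was listed at any other bat candidate. Whether variant reads were also counted at other candidates was not tested.

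The reads at each 3p candidate came as many sequence variants. Candidate_513 had 60 distinct read sequences, Candidate_869 had 39, Candidate_870 had 34, Candidate_683 had 31 and Candidate_514 had 21. That is 14.5 reads per distinct sequence at Candidate_513 and 15.8 at Candidate_514, and 4.87 at Candidate_683. On the 5p side Candidate_871 had 10 distinct sequences and Candidate_868 had 5. All 5 prediction models accepted the 5 3p candidates and Candidate_871, and 4 models accepted the other 5p candidates. Among the other bat candidates 51.4% were accepted by all 5.

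Folding placed the listed arms opposite each other. With RNAfold the ends of the duplex at the base of the stem left 3′ overhangs of 3 bases in hairpin A, 4 in B, 3 in C and 3 in D. At the loop end they left 2 bases in A, 3 in B, 2 in C and 1 in D. These overhangs depend on the ends of the listed mature sequences, which are 21 to 25 bases long. The free energy per base was -0.294 kcal per mol in A, -0.417 in B, -0.392 in C, -0.339 in D and -0.302 in E. Their median was -0.339, and the median over the other bat candidates was -0.415, which is the more stable value. The median GC content was 42.7% over the 5 hairpins and 55.7% over the other bat candidates.

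Hairpins of the set were related to each other in part. Hairpins A and D aligned over 100 bases at 79% identity, B and E over 98 bases at 76.5%, and B and C over 113 bases at 75.2%. A and C aligned over 109 bases at 71.6%, and C and E over 97 bases at 69.1%. A and B, though neighbours, aligned over 36 bases only, at 83.3%. No other bat candidate aligned to the set at 80% identity over 50 bases. The nearest, named after their values were seen, were Candidate_214 and Candidate_215 on ALEH01144121.1, 3096 to 3240 on the minus strand, outside the 5 contigs. They aligned to hairpin B over 58 bases at 77.6%, to C over 64 bases at 71.9% and to E over 98 bases at 70.4%. That stretch had 135 reads on the 5p arm and 130 on the 3p arm, so its 5p share was 50.9% (44.8 to 57.1), above the intervals of hairpins A to D.

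**Figure D2:**
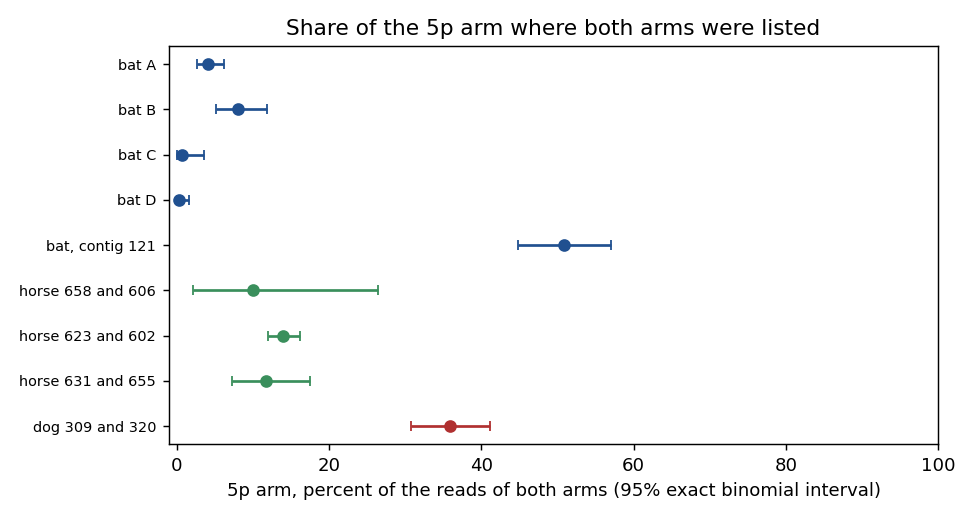
Reads of the 5p arm as a percent of the reads of both arms at the bat hairpins A to D, at the bat stretch on contig ALEH01144121.1, and at horse and dog hairpins of the X blocks where both arms were listed. Points are shares of the best candidate per arm, bars are exact 95% binomial intervals. The bat shares run from 0.301 to 8.07% in hairpins A to D, the horse shares from 10 to 14%, and the dog share is 35.9%.

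Matches in the horse and the dog were sought at up to 2 mismatches over 18 bases with a start offset of at most 2. Of the 9 mature sequences, 4 matched the horse list and 3 matched the dog list. Of all 647 distinct bat mature sequences, 2.32% matched the horse list and 3.4% matched the dog list. The set was chosen with such matches known, so nothing is read from this contrast. All matches lay on chromosome X, on the minus strand, and on the same arm in both species. Chromosome X held 59 of the 439 horse candidates and 36 of the 252 dog candidates. Mature sequences of the matched candidates, and of horse Candidate_634 and Candidate_623, which fell past the limit, are given with the seed in capitals.
Horse Candidate_634 (3p): tGAATGGCacctttctgagtagagt
Horse Candidate_602 (3p): tGAAGTGTgcctttctgaatag
Horse Candidate_623 (5p): tATTTAGGaagacgctattcacata
Horse Candidate_606 (3p): aTTGGCACttttttgagtgtg
Horse Candidate_658 (5p): cACTCCAAagagtgccattca
Horse Candidate_655 (3p): tGCTTGGCatctcttagagtgagg
Dog Candidate_313 (5p): tACTCAGGgaggcgtcattcacata
Dog Candidate_333 (3p): tATGATTGgcacctctttgagtgta
Dog Candidate_305 (3p): aTTGGCACttttttgagtgtg

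Hairpin C was matched in both other species. Candidate_683 had 151 reads in the bat, horse Candidate_606 had 27 reads and dog Candidate_305 had 8 reads. The horse and dog sequences are identical to each other and share the bat seed. They differ from the bat by T10C over the compared bases, written as the horse or dog base, the position from 1 at the bat 5′ end, and the bat base. Among all distinct bat mature sequences, 0.618% had a match in both lists. The seed of Candidate_683 also occurred at bat Candidate_4 and Candidate_272 and at horse Candidate_237 on chromosome 7, each at over 3 mismatches. The 5p side matched too, in the horse. Candidate_682 had 1 read and horse Candidate_658 had 3 reads, with A11G between them and the same seed. That seed also occurred at horse Candidate_636, at over 3 mismatches.

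Hairpins B and D had 3p matches in the horse. Candidate_869 had 262 reads in the bat and horse Candidate_655 had 151 reads, with C3A and G17A, the first of which lies in the seed. Candidate_514 had 331 reads in the bat and horse Candidate_602 had 943 reads, with T8C and T14C. T8C is the last base of the seed, so neither pair shares it. The seed of Candidate_514 also occurred at bat Candidate_200 and Candidate_847, each at over 3 mismatches. On the 5p side of D, Candidate_515 had 1 read in the bat and horse Candidate_623 had 153 reads. That pair shares its seed but differs by A12G, G14A and T16C, which is 1 mismatch past the limit.

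Hairpin A was matched on its 5p arm in the dog. Candidate_868 had 22 reads in the bat and dog Candidate_313 had 769 reads, rank 11 of 252 in the dog list. The pair shares its seed and differs by G9A and G14A. The main 3p sequence of hairpin A, Candidate_870 with 506 reads, had no match by the rule. Horse Candidate_634 has the same seed, 7855 reads and rank 2 of 439 in the horse list. It differs from the bat sequence by 1 edit over 18 bases once a gap is allowed, a comparison added after the sequences were seen. The ungapped rule counts more than 3 mismatches there, since bases after the gap are shifted. The seed of Candidate_870 also occurred at bat Candidate_558, at over 3 mismatches.

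Hairpin E was matched in the dog. Candidate_513 had 872 reads in the bat and dog Candidate_333 had 47 reads, with A4T between them and a start 1 base apart, so the seeds differ. Just past the limit, at 3 mismatches, were Candidate_513 with horse Candidate_655, and Candidate_869 with dog Candidate_333. The same horse and dog candidates were therefore near hairpins B and E alike. Candidate_871 had no mature match in either species, but dog Candidate_333 holds a stretch with 2 mismatches to it in its unlisted 5p arm. Read counts are not compared between species, because the libraries and the totals behind them differ.

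Whole hairpins were also compared, at a limit unlike the one for mature sequences. Candidates of the same hairpin share nearly all of its sequence and are counted separately here. The counts are therefore not set against those of mature sequences. With alignments of at least 50 bases at 80% identity or more, 8 of the 9 candidates matched the horse list and 6 matched the dog list. Over all 762 bat candidates the shares were 2.89% for the horse and 4.86% for the dog. Hairpin A aligned to horse Candidate_634 over 118 bases at 87.3% and to dog Candidate_313 over 122 bases at 86.9%. Hairpin C aligned to horse Candidate_658, on the other arm of the stretch of Candidate_606, over 135 bases at 83.7%, and to dog Candidate_305 over 103 bases at 87.4%. Hairpin D aligned to horse Candidate_602 over 97 bases at 86.6%, while its best dog alignment, to Candidate_313, had 76.5% over 98 bases. Hairpin B aligned to horse Candidate_655 over 89 bases at 82% and to dog Candidate_333 over 141 bases at 80.9%. Alignments past the limit were thus those of hairpins A to D in the horse and of A to C in the dog. Hairpin E fell short of the limit at its best-scoring alignments, with 77.4% over 93 bases at horse Candidate_655 and 79.6% over 93 bases at dog Candidate_333.

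**Figure D3:**
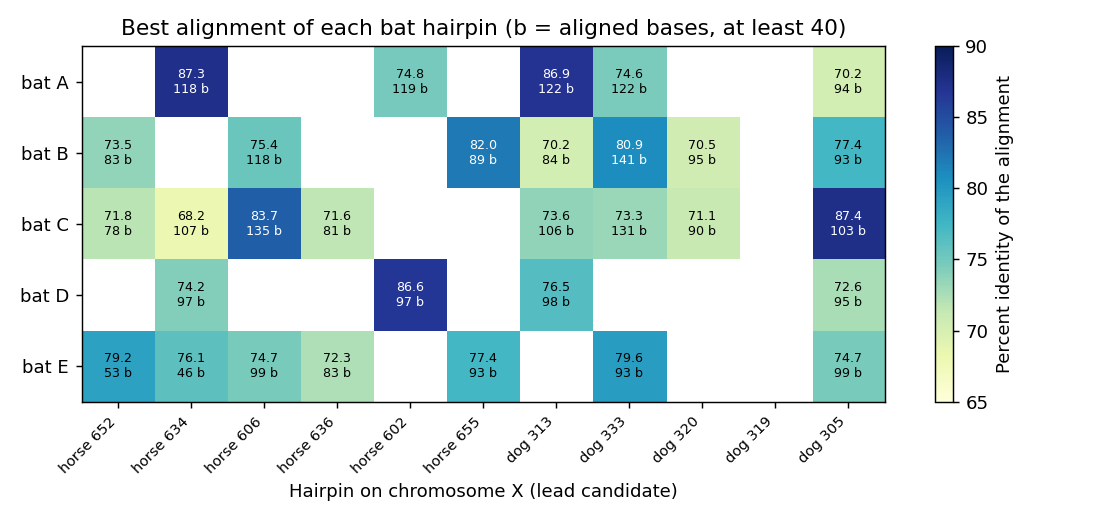
Percent identity of the best alignment between bat hairpins A to E (rows) and the hairpins of the horse and dog X blocks in chromosome order (columns, named by the most-read candidate). Each cell gives percent identity and aligned bases (b), and white cells had no alignment of 40 bases. Hairpins A, C and D have a best match of at least 83.7% in the horse, and E has none above 80%.

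The horse and dog hairpins of A are shown to compare with bat hairpin A above, as their listed arms differ.
Horse Candidate_634: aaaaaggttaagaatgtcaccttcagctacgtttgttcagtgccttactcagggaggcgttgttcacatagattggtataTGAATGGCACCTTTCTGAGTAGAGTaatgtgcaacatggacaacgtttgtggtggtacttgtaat
Dog Candidate_313: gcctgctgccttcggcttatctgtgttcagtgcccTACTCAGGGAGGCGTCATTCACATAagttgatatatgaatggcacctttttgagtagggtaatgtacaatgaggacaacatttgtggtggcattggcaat
The bat list gave both arms, with 506 reads on 3p and 22 on 5p. The horse list gave the 3p arm with 7855 reads and no 5p candidate, and the dog list gave the 5p arm with 769 reads and no 3p candidate. Reads on an arm that a list does not hold were not seen here. The bat 5p sequence had 4 mismatches to its best place in horse Candidate_634, and the bat 3p sequence had 4 in dog Candidate_313. Gaps were not allowed in these counts, and the printed hairpins hold the bat seed at both places.

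The order of the hairpins was compared with chromosome X. In the horse, on a build not settled here, the hairpins of the best alignments lay within X, 116750733 to 116800183. This block of 49451 bases held 6 loci and 9 candidates with 9928 reads, or 16.3% of the listed horse reads, 7855 of them at Candidate_634. The listed horse total counts a mature sequence again at each candidate that lists it. In the dog, whose build is CanFam3.1 (submitters' processing notes), the block was X, 115652383 to 115665474. It spanned 13092 bases and held 5 loci and 6 candidates with 1382 reads, or 1164 with identical sequences once. Every hairpin of both blocks was on the minus strand, as in the bat. Outside the horse block, hairpins A, C and D also aligned to horse X hairpins short of the hairpin limit. Hairpin A did so at Candidate_619, from 115870758, over 124 bases at 74.2%.

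Best alignments of A, C and D followed the bat order in the horse. Candidate_634 for A, at 116755599, came before Candidate_606 for C, at 116771992, and Candidate_602 for D, at 116796904. Candidate_655, the best horse hairpin for both B and E, came last at 116800091. On the bat contig, D and E were 3662 bases apart, and in the horse Candidate_602 and Candidate_655 were 3048 bases apart. By place Candidate_655 stands where E would, while by identity it is nearer to B. In the dog, Candidate_313 for A, at 115652383, came before Candidate_333 for B, at 115652681, and Candidate_305 for C, at 115665368. A and B were 266 bases apart in the bat, and Candidate_313 and Candidate_333 were 163 bases apart in the dog.

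The bat order held for A, B and C in the dog and for A, C and D in the horse, on the premise that contig numbers run along the chromosome. Hairpin B, the other hairpin past the limit in the horse, did not keep it, since its best alignment lay after that of D. The sources used here do not give how the bat contigs are joined, so the order between contigs was not tested. Within a contig, A before B and D before E need no such premise. Horse Candidate_652 and Candidate_636, with 683 and 93 reads, and dog Candidate_309, Candidate_320 and Candidate_319, with 122, 218 and 218 reads, lay in the blocks without a bat hairpin at 80% identity. Candidate_320 and Candidate_319 share an identical mature sequence, so their reads may be the same.

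**Figure D4:**
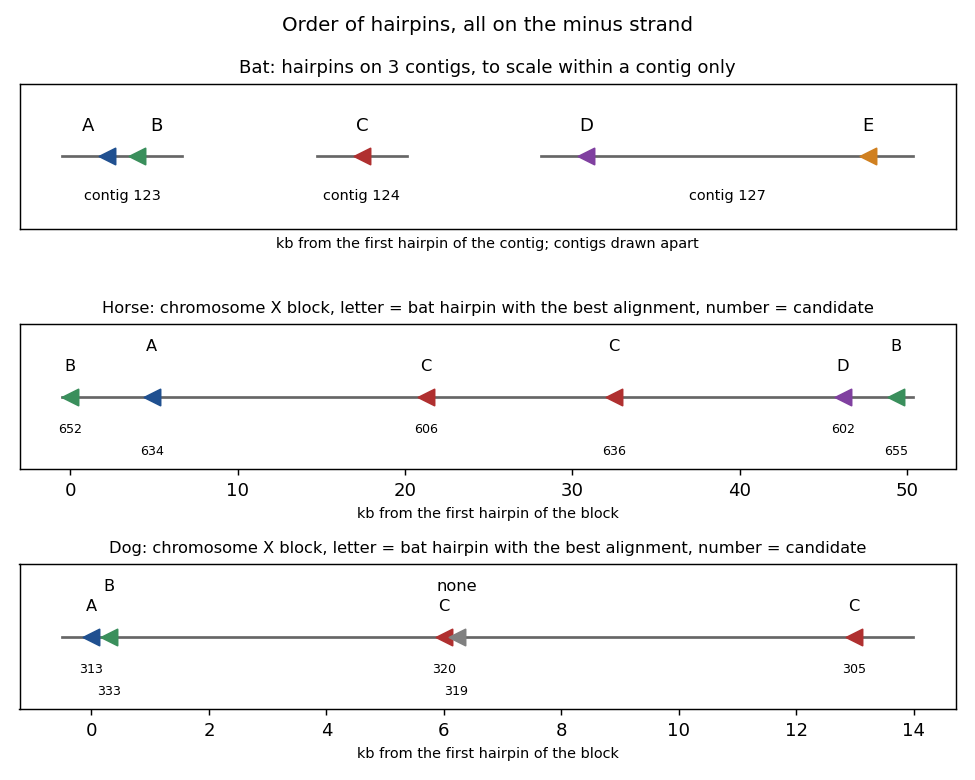
Order of the hairpins on the 3 bat contigs, and on the horse and dog X blocks as distance in kb from the first hairpin. Arrowheads are hairpins on the minus strand, letters give the bat hairpin with the best alignment and numbers give the most-read candidate. Letters are given below 80% identity too, as for B at horse Candidate_652 and C at horse Candidate_636 and dog Candidate_320. At 80% identity or more, A, C and D appear in the same order in bat and horse, where the best alignment of B lies after D, and A, B and C in bat and dog.

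Arm use in the horse block leaned to 3p where both arms were listed. At the other horse loci a single arm was listed. It was 5p at Candidate_652 with 683 reads and Candidate_636 with 93, and 3p at Candidate_634 with 7855. At hairpin C the 5p arm took 0.658% of 152 reads in the bat (0.0167 to 3.61) and 10% of 30 reads in the horse (2.11 to 26.5), with overlapping intervals. At hairpin D it took 0.301% in the bat (0.00763 to 1.67) and 14% in the horse (12 to 16.2), without overlap. At hairpin B the 5p arm took 8.07% in the bat (5.18 to 11.9). At Candidate_631 and Candidate_655 in the horse it took 11.7% (7.29 to 17.5), with overlap. That horse hairpin was the best alignment of both B and E, so its pairing with B is not settled. The D contrast is between 1 library of each species, with counting error only.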

How the data were processed

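Small RNA of adult testis was sequenced as 50 bp single-end reads per the labels' protocols, and 3 of the 4 libraries of the series were analysed here, 1 each of bat, horse and dog. The other bat library was not analysed here. The lists are the output of a local installation of miRanalyzer, per the deposited description of the columns. Its deposited counts are distinct read sequences and summed reads per candidate, not normalized. The deposited score says how many of 5 models accepted a candidate, 4 or 5 here. The deposited fraction gives a candidate's reads over the total of the authors' analysis, to 3 decimals, and summed to 0.022 over the 9 candidates. For trimming, mapping and any removal of known miRNAs the settings were not given in the sources used here. The lists held 89091 bat, 61054 horse and 63429 dog reads.

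Arms were called from the middle of the mature sequence against the middle of the hairpin. Hairpins were aligned with blastn 2.17.0 (word size 7, E-value 0.001, same strand) and folded with RNAfold 2.7.2, the rest used Python 3.11.15, pandas 2.3.3, scipy 1.17.1 and matplotlib 3.10.9. Blocks on chromosome X run from the first to the last listed hairpin found within 10000 bases of the best alignments, and their spans include no margin. The mature match, the arm by the side of the folded loop and the overhangs were tested on simulated sequences. The arm call from the hairpin middle was not. Every candidate of the set had the same arm by both calls. The candidates, contigs and comparisons were chosen with earlier results of these data known. All candidates of the 5 contigs were named, with the horse and dog candidates they match.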

Additional observations from a re-analysis of the deposited data

How the results depend on the processing

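Of 33 alternative settings, 9 moved a count by over 1.5 times or summed reads past their counting interval. Among the other 24 the median reads went to 296.5 with all 5 models, against 151, within the spread of the 9 candidates. Horse mature matches numbered 6 at 3 mismatches, against 4, and dog hairpin matches 9 at 40 bases and 75% identity, against 6. Merging overlapping hairpins, on the same or on either strand, turned 9 candidates into 5. The summed reads were 1297 without Candidate_513 and 2434 with contig ALEH01144121 added, against 2169. Mature matches numbered 0 in the horse and 0 in the dog with no mismatch, and 2 in the horse at 1 mismatch, against 4 and 3. At 60 bases and 90% identity no hairpin matched, 0 in the horse and 0 in the dog, against 8 and 6. These moves follow from how each setting is built. With gaps allowed, a setting added after seeing the data, like the added contig, 5 matched in the horse and 3 in the dog. Names from a reference miRNA table were not run, as no table of miRNA sequences was used here. No paired analysis was possible because each species has 1 library with values. The 1 read behind Candidate_515 and behind Candidate_682 limits what can be said of those arms.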
